A study of Homo sapiens with 4 samples.

Results

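The RASSF family was followed on 4 Affymetrix arrays of LNCaP, a line of androgen-responsive human prostate cancer cells. The arrays carry 18 probe sets that the platform annotation gives to 1 of the 10 family genes RASSF1 to RASSF10, out of 51963 probe sets tested. These 18 probe sets name 9 genes of the 19583 named in all, and RASSF10 was not analysed here. RASSF2, RASSF7 and RASSF9 have 1 probe set each, RASSF1, RASSF3 and RASSF5 have 2, and RASSF4, RASSF6 and RASSF8 have 3. All probe sets of these genes were taken, but the family was picked out because RASSF2 had stood out in this same contrast. The differences between the groups at the RASSF probe sets are therefore given as a description, without a test.

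The 2 LNCap ERG arrays measured cells transduced with a lentivirus for the ETS transcription factor ERG with red fluorescent protein, and the 2 LNCap Vector arrays measured cells that received the control lentivirus with the fluorescent protein alone. All cells were of the LNCaP line, grown in the same medium and seeded overnight before RNA was extracted. It is not stated whether the 2 arrays of each group were made from independent transductions or cultures, and their spread may be technical. Nor is the promoter that drives ERG in the lentivirus stated, or whether the transduced cells were 1 clone or a population. The values are probe set intensities on a log2 scale, and a difference is the mean of the LNCap ERG arrays minus that of the LNCap Vector arrays.

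RASSF proteins are adaptors named for a RAS-association domain, the fold through which they bind RAS-type GTPases. RASSF1 to RASSF6 carry this domain toward the C-terminus, followed by a SARAH domain that pairs with the MST kinases of the Hippo pathway (STK3 and STK4), while RASSF7 to RASSF10 carry it at the N-terminus and lack the SARAH domain. They link RAS signals to apoptosis, microtubules and Hippo signalling, and several of them, RASSF1 above all, are known for loss of expression through promoter methylation in prostate and other cancers.

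The series as a whole gives the frame for these values. The 2 LNCap ERG arrays correlated at r = 0.997 over all probe sets, with an SD of their differences of 0.20 on the log2 scale, and the 2 LNCap Vector arrays at r = 0.996 with an SD of 0.21. The 4 ERG probe sets read 2.65 to 3.47 in the LNCap ERG arrays and 2.73 to 3.58 in the LNCap Vector arrays, with differences of -0.24 to 0.12, so they do not check the labels, and whether they can read the transduced ERG was not tested. The 9 luminal prostate markers that were measured, KLK3 and HOXB13 among them, read between 9.65 and 12.9 in their means over the 4 arrays. KLK2, TMPRSS2 and KLK3 were wholly lower in the LNCap ERG arrays, with differences of -0.29, -0.20 and -0.13 (adjusted p = 0.59, 0.67 and 0.75 by limma). The other 6 lay above 0, with FOLH1 the highest at 0.08 and wholly higher, and the median of the 9 was 0.03. The part of these markers in the RASSF differences was not tested. As a gauge of dim signal, 30 measured genes of other organs were used, whose median was 3.38 on the log2 scale and whose 95th percentile, called the dim level here, was 6.01. This percentile rests on few genes: those above it are MBP and TTR, at means of 8.16 and 6.04.

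Against that gauge, 5 of the 18 RASSF probe sets lay above the dim level in all 4 arrays, 2 did so in some arrays, and 11 in none. Of all probe sets, 28.9% had a mean over the 4 arrays above it, so these counts are not read as a trait of the family. The 5 are both probe sets of RASSF1, both of RASSF3 and the brighter one of RASSF5. RASSF2 and RASSF7 are the genes that lay above it in some arrays. The probe sets of RASSF4, RASSF6, RASSF8 and RASSF9 and the dimmer one of RASSF5 ran from 2.56 to 4.51 over all arrays, and the size of a difference at them is uncertain.

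**Figure D1:**
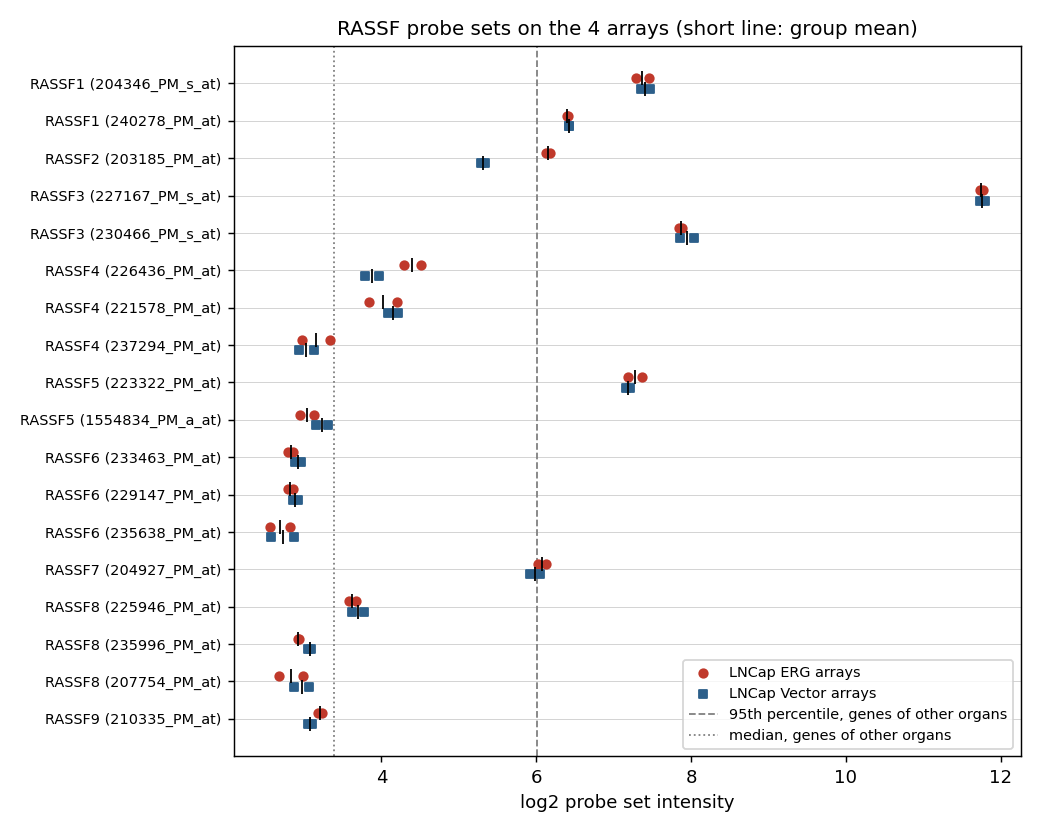
Log2 probe set intensity (x axis) at the 18 RASSF probe sets (y axis). Circles are the 2 LNCap ERG arrays, squares the 2 LNCap Vector arrays, short lines the group means, the dashed line the 95th percentile (6.01) and the dotted line the median (3.38) of genes of other organs. RASSF2 is the one probe set near the dashed line with the groups well apart, at means of 6.15 and 5.32.

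RASSF2, a C-terminal family member that binds K-RAS and stabilizes the MST kinases, had the largest difference of the family. Its single probe set, 203185_PM_at, read 6.18 and 6.13 in the LNCap ERG arrays, against 5.29 and 5.34 in the LNCap Vector arrays. The groups did not overlap, and the gap between them was 0.78 while the arrays within a group differed by 0.05 each. The means were 6.15 ± 0.04 in LNCap ERG and 5.32 ± 0.04 in LNCap Vector (SD, n = 2 each), a difference of 0.84 on the log2 scale (standard error 0.09), or 1.79-fold higher. In bulk RNA, more cells with RASSF2 transcripts and more transcripts per cell cannot be told apart. In the deposited linear unit the probe set read 72.5 and 70.0 in the LNCap ERG arrays and 39.1 and 40.6 in the LNCap Vector arrays. The LNCap Vector arrays lay below the dim level and the LNCap ERG arrays just above it, so the size of the fold is uncertain. With 16 added to each intensity before log2 the difference was 0.64. RASSF2 ranked 29 in the upward direction among all 51963 probe sets. With any 1 array left out the difference was 0.81 to 0.87.

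RASSF4, another C-terminal member, which binds K-RAS and is linked to apoptosis, differed between its probe sets. The brightest, 226436_PM_at, read 4.51 and 4.29 in the LNCap ERG arrays, against 3.97 and 3.79 in the LNCap Vector arrays. Here too the groups did not overlap, with means of 4.40 ± 0.16 in LNCap ERG and 3.88 ± 0.13 in LNCap Vector (SD, n = 2 each) and a difference of 0.52 (standard error 0.12). The gap between the groups, 0.32, was wider than the spread within LNCap ERG of 0.23 and within LNCap Vector of 0.19. The second, 221578_PM_at, read 3.84 and 4.20 in the LNCap ERG arrays and 4.09 and 4.21 in the LNCap Vector arrays, a difference of -0.13 (standard error 0.14) with overlapping groups. The third, 237294_PM_at, read 3.34 and 2.97 in the LNCap ERG arrays and 2.93 and 3.13 in the LNCap Vector arrays, a difference of 0.12 (standard error 0.15), again with overlap. The mean over the 3 probe sets was 0.17, and every RASSF4 value lay below the dim level, so the difference at 226436_PM_at was not seen at the other probe sets of the gene and has no exact size.

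RASSF1, the best known tumour suppressor of the family and a microtubule-binding MST partner in its long form, was close to level. At 204346_PM_s_at it read 7.45 and 7.30 in the LNCap ERG arrays, against 7.36 and 7.46 in the LNCap Vector arrays, and the groups overlapped (difference -0.04, standard error 0.10). At 240278_PM_at it read 6.39 and 6.41 in the LNCap ERG arrays, against 6.42 and 6.43 in the LNCap Vector arrays. There the groups did not overlap, yet the difference was only -0.02 (standard error 0.09). The annotation does not say which RASSF1 isoform either probe set reads.

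RASSF3, a C-terminal member linked to p53 through MDM2, read 11.73 and 11.77 in the LNCap ERG arrays and 11.73 and 11.79 in the LNCap Vector arrays at 227167_PM_s_at (difference -0.01, standard error 0.09). Its other probe set, 230466_PM_s_at, read 7.84 and 7.89 in the LNCap ERG arrays and 8.04 and 7.86 in the LNCap Vector arrays (difference -0.08, standard error 0.10). The groups overlapped at both. Both are of the kind whose probes may match more than 1 transcript, as is 204346_PM_s_at of RASSF1.

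RASSF5, known as NORE1 or RAPL and an effector of RAP1 in lymphocyte adhesion, read 7.37 and 7.18 in the LNCap ERG arrays and 7.21 and 7.16 in the LNCap Vector arrays at 223322_PM_at (difference 0.09, standard error 0.10). At the dim 1554834_PM_a_at it read 3.13 and 2.95 in the LNCap ERG arrays and 3.16 and 3.31 in the LNCap Vector arrays (difference -0.20, standard error 0.11). These probe sets thus differ in sign, and the groups overlapped at the brighter one only. RASSF6, an MST-binding member, was dim at its 3 probe sets, with values of 2.56 to 2.87 in the LNCap ERG arrays, 2.58 to 2.96 in the LNCap Vector arrays and differences of -0.09 to -0.03.

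The N-terminal class has 5 probe sets on 3 genes, with differences of -0.15 to 0.13. RASSF7, which acts at microtubules in mitosis, read 6.02 and 6.12 in the LNCap ERG arrays and 5.92 and 6.05 in the LNCap Vector arrays, a difference of 0.09 (standard error 0.10) with overlapping groups. RASSF8, a regulator of cell junctions, had differences of -0.07, -0.15 and -0.14 at its 3 dim probe sets, and the groups did not overlap at 235996_PM_at alone, which read 2.94 and 2.92 in the LNCap ERG arrays and 3.09 and 3.06 in the LNCap Vector arrays. RASSF9, a protein of recycling endosomes, read 3.23 and 3.19 in the LNCap ERG arrays and 3.10 and 3.05 in the LNCap Vector arrays, a difference of 0.13 (standard error 0.09) at dim signal.

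**Figure D2:**
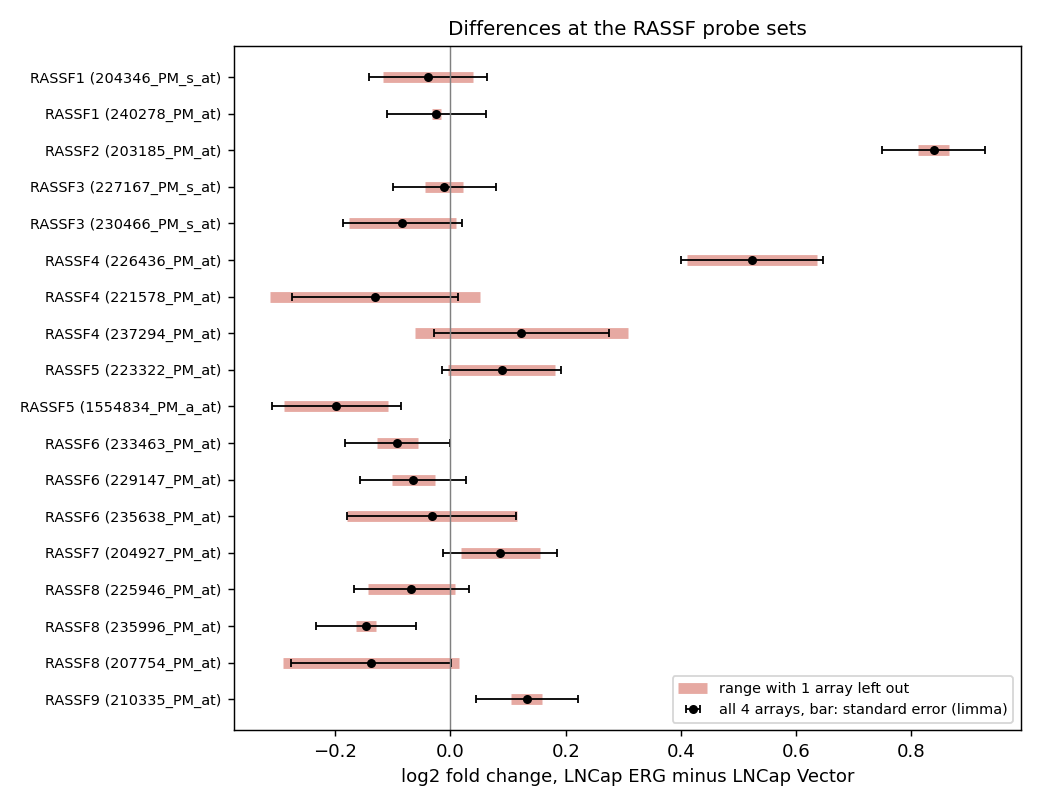
Log2 fold change, LNCap ERG minus LNCap Vector (x axis), at the 18 RASSF probe sets (y axis). Points are the values over 4 arrays with limma's standard error as a bar, and pale bands run from the lowest to the highest value with 1 array left out. RASSF2 (0.84) and 1 RASSF4 probe set (0.52) lie apart from the other 16, which run from -0.20 to 0.13.

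Over the 18 probe sets the median difference was -0.04, beside 0.00 over all 51963, with 6 above 0 and 12 below. The 3 probe sets with LNCap ERG wholly above LNCap Vector were those of RASSF2 and RASSF9 and 1 of RASSF4, beside 18.8% of all probe sets, and the 4 with LNCap ERG wholly below were on RASSF1, RASSF5, RASSF6 and RASSF8, beside 19.4%. With a difference of at least 0.5 required as well, 2 RASSF probe sets were higher, those of RASSF2 and RASSF4, beside 0.425% of all probe sets. None was lower by as much, beside 0.518%. Since the family was chosen from this contrast, nothing is read from these counts. Without the first LNCap ERG array or the second LNCap Vector array the RASSF4 probe set fell below 0.5, at 0.41 and 0.43, which left RASSF2 as the only one.

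In limma's moderated test over all probe sets, 0 of 51963 passed an adjusted p of 0.05 (0%). At an unadjusted p under 0.05 there were 2105 higher (4.05%) and 2105 lower (4.05%). By the methods' t-test 1856 were higher and 1840 lower at that level. After Benjamini-Hochberg adjustment it gave 0 higher and 1 lower over all probe sets. The count of arrays limits the precision here. In simulated sets of 4 arrays, 200 of 51963 probe sets were changed per run, all by the same size, with variances drawn from limma's prior. The test recovered 0% of log2 changes of 0.5, 7.3% of changes of 1 and 95.7% of changes of 2. These shares hold for that setting, and the share recovered in the real data is not known.

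**Figure D3:**
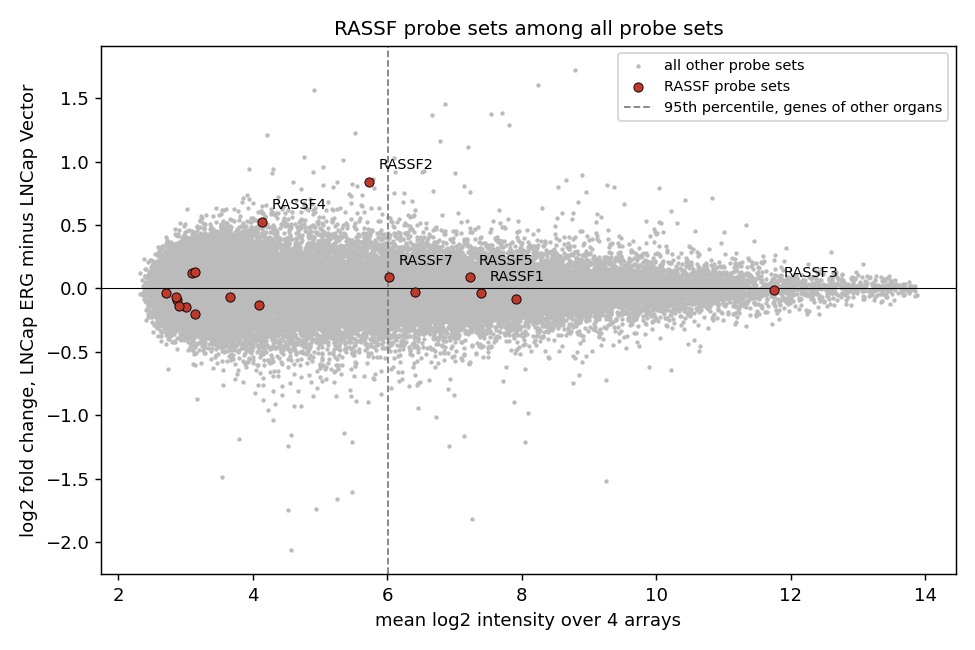
Log2 fold change, LNCap ERG minus LNCap Vector (y axis), against the mean log2 intensity over the 4 arrays (x axis) for all probe sets (grey) and the 18 RASSF probe sets (red, the brightest of 6 genes named). The dashed line is the dim level of 6.01. RASSF2, at 0.84, and RASSF4, at 0.52, lie above the dense grey band, and the other 16 within it.

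The promoter windows of 3 members are shown to set the gene with the largest difference, RASSF2, and the other with a difference over 0.5, RASSF4, beside RASSF3, the bright gene that was level. Each window runs from 250 bases before to 50 bases after a transcription start in RefSeq (GRCh38.p14), 5′ to 3′ on the gene's own strand. Capitals mark GGAA, the core that ETS factors such as ERG recognise, and its reverse complement TTCC. No binding was measured here.
RASSF2, chr20:4815098-4815397, minus strand: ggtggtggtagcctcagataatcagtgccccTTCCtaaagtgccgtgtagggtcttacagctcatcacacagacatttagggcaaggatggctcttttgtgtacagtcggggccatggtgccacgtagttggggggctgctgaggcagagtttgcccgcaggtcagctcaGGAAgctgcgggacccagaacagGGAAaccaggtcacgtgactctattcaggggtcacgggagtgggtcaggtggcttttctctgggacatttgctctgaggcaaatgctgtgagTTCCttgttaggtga
RASSF4, chr10:44959552-44959851, plus strand: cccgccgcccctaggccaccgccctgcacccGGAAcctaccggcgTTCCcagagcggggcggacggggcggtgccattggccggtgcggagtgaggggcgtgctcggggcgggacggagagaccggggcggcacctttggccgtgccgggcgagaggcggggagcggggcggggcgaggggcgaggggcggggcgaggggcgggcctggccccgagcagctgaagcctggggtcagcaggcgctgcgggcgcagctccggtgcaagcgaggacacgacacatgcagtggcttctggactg
RASSF3, chr12:64610245-64610544, plus strand: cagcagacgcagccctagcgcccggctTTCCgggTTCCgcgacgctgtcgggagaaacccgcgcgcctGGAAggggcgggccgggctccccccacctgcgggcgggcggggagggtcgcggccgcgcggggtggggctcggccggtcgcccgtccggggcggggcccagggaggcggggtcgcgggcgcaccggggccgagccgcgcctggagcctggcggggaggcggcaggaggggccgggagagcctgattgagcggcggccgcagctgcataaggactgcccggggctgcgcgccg

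The RASSF2 window holds GGAA on either strand 4 times, the RASSF4 window 2 times and the RASSF3 window 3 times. Of all 35116 windows of this length, 95.5% hold it at least once and 46% hold it at least 4 times. The longer CCGGAA, which contains GGAA, was found on either strand in the RASSF4 and RASSF3 windows and not in that of RASSF2, beside 17.2% of all windows. CpG, the dinucleotide that is methylated in silenced promoters, was found 7 times in the RASSF2 window, and 39.3% of all windows hold it at most that often. The RASSF4 window holds it 36 times and the RASSF3 window 45 times, beside a median of 14 over all windows. The RASSF2 window belongs to an inner start, 8461 bases inside the outermost start of RASSF2, where CpG was not counted. The RASSF3 window likewise lies 103531 bases inside, while that of RASSF4 is the outermost. In all, 9 windows matched 7 of the genes, with none for RASSF7, RASSF8 and RASSF10. All 9 hold GGAA, with 2 to 8 matches each.

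The genes beside RASSF2 on its chromosome had smaller differences, of either sign. Its 3 protein-coding neighbours on either side in RefSeq order, which are ADRA1D, PRNP, PRND, SLC23A2, TMEM230 and PCNA, had differences of 0.19, -0.17, -0.09, -0.15, -0.11 and -0.05, with adjusted p-values of 0.68 to 0.92 from limma. The neighbours were looked up after the values of RASSF2 and RASSF4 were seen. ADRA1D and PRND were dim, and SLC23A2, the nearest to it on 1 side, read 6.37 and 6.25 in the LNCap ERG arrays and 6.39 and 6.54 in the LNCap Vector arrays. Of the neighbours of RASSF4, those directly beside it, TMEM72 and DEPP1, were wholly higher in the LNCap ERG arrays with differences of 0.39 and 0.21 (adjusted p = 0.59 and 0.63 by limma), at dim signal. ZNF32, CXCL12 and ZNF22 had -0.05, -0.06 and 0.01.

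The genes whose pattern over the 4 arrays was most like that of RASSF2 were RALGAPA2, ASPH, PFKFB4, ADRA2A and GRB10. Likeness was the Euclidean distance between the 4 log2 values after each probe set's own mean was taken off, over 8604 genes above the dim level in all arrays, and it was 0.08 to 0.12 for these 5. RASSF2 lay below that level in the LNCap Vector arrays, so genes as dim as RASSF2 could not be named. RALGAPA2, a subunit of a GTPase-activating complex for RAL proteins, read 9.66 and 9.70 in the LNCap ERG arrays and 8.80 and 8.93 in the LNCap Vector arrays. GRB10, an adaptor of insulin receptor signalling, read 10.38 and 10.48 in the LNCap ERG arrays and 9.62 and 9.66 in the LNCap Vector arrays. With 4 arrays this ranks genes by the size of the same difference, so it is a description only.

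Genes that act with RASSF proteins were measured in the same fit, with the brightest probe set of each gene. Of 71 listed genes 67 were measured. None passed an adjusted p of 0.05 by limma or by the methods' t-test, and at an unadjusted p under 0.05 limma gave 3 higher (4.48%) and 0 lower, beside 4.76% and 3.3% of all genes. By the methods' t-test 6 of the 67 were higher and 3 lower at that level, beside 4.38% and 3.76% of all genes. With trended and robust moderation 9 of the 67 were higher and 3 lower, beside 5.6% and 4.72%. The share higher was thus above that of all genes in both alternatives, and below it in the main setting. The cause was not tested. The median difference was 0.03, beside 0.01 over all genes.

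Among the 13 Hippo kinases and scaffolds, 1 was higher at that level and the median was 0.04. STK3, an MST kinase bound by the SARAH domain, and STK4, its paralogue, had differences of 0.22 and 0.02 (adjusted p = 0.65 and 0.98 by limma). TAOK1, a kinase that activates MST kinases, read 9.74 and 9.74 in the LNCap ERG arrays and 9.50 and 9.53 in the LNCap Vector arrays (difference 0.22, adjusted p = 0.61 by limma), and the scaffold genes WWC2 and FRMD6 had -0.31 and -0.45 at dim signal (adjusted p = 0.62 and 0.64 by limma). Downstream, 1 of 9 genes of YAP and TEAD was higher at that level. It was TEAD2, a DNA-binding partner of YAP1, which read 5.49 and 5.39 in the LNCap ERG arrays and 4.92 and 4.92 in the LNCap Vector arrays. Its difference of 0.52 had a standard error of 0.09 and an adjusted p of 0.50 by limma, with every array below the dim level. TEAD4 and VGLL4, which competes with YAP1 for TEAD proteins, had 0.20 and 0.19 (adjusted p = 0.65 each by limma). Of 14 YAP target genes 0 were past the unadjusted level, and the median was -0.03. Only 5 of the 14 lay above the dim level in any array, so the size of most differences in this list is uncertain. CCN1, a matrix protein and standard YAP target, averaged 5.83 in the LNCap ERG arrays and 5.99 in the LNCap Vector arrays (difference -0.16, adjusted p = 0.69 by limma). PTPN14 and ANKRD1 had 0.19 and -0.11 (adjusted p = 0.67 and 0.78 by limma). CCN1 and ANKRD1 lay below the dim level in every array.

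Of 9 measured RAS-type GTPases, the ligands of the RAS-association domain, 1 was higher at an unadjusted p under 0.05 and the median was -0.04. MRAS, a RAS relative, read 6.71 and 6.59 in the LNCap ERG arrays and 6.35 and 6.26 in the LNCap Vector arrays. The difference was 0.35 with a standard error of 0.10 and an adjusted p of 0.58 by limma. RAP1B, which signals through RASSF5, had -0.21 and RALA had 0.09 (adjusted p = 0.66 and 0.85 by limma). Of 14 binding partners 0 were past that level, with a median of 0.08. MDM2, BAX and PPP1R13B, a p53 partner bound by N-terminal members, had 0.22, 0.28 and 0.26 (adjusted p = 0.62, 0.62 and 0.67 by limma). Of 9 genes of the DNA methylation machinery and its partners 0 were past it either, with a median of -0.04. DNMT1, the maintenance methyltransferase, read 9.26 and 9.25 in the LNCap ERG arrays and 9.41 and 9.40 in the LNCap Vector arrays, a difference of -0.15 (adjusted p = 0.71 by limma). UHRF1, which guides it, had -0.13 and the Polycomb methyltransferase EZH2 had 0.09 (adjusted p = 0.76 and 0.82 by limma).

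**Figure D4:**
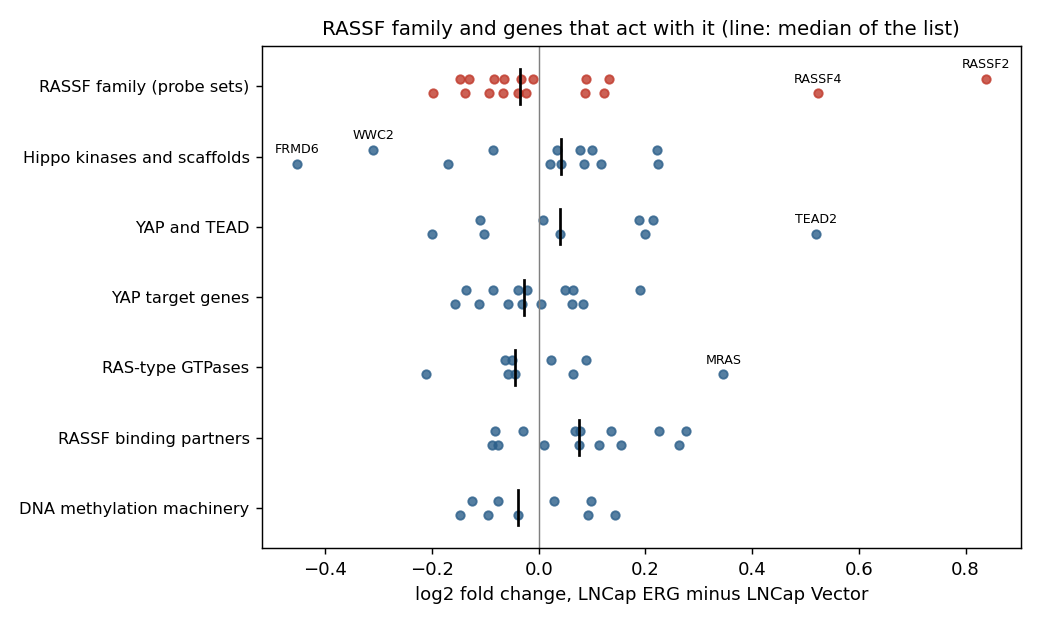
Log2 fold change, LNCap ERG minus LNCap Vector (x axis), of the 18 RASSF probe sets (red) and of the measured genes of 6 lists (blue, 1 probe set per gene), with the median of each as a black line. The medians lie between -0.04 and 0.08, and RASSF2 (0.84), RASSF4 and TEAD2 (0.52 each) lie farthest to the right.

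RASSF2 and RASSF5 are also genes of blood cells, so markers of other cell types were read beside them. Of 7 blood markers 0 reached the dim level in any array, and their summed linear intensity was 82.2 to 86.5 in the LNCap ERG arrays and 80.8 to 90.3 in the LNCap Vector arrays. PTPRC, the pan-leukocyte marker, read 2.88 and 2.95 in the LNCap ERG arrays and 2.96 and 2.89 in the LNCap Vector arrays. Of 5 endothelial markers 1, VWF, reached the dim level in some array, and their sum was 103.4 to 112.5 in the LNCap ERG arrays and 85.0 to 94.7 in the LNCap Vector arrays, while the defining markers CDH5, PECAM1 and KDR stayed dim. VWF, PECAM1 and TEK were wholly higher in the LNCap ERG arrays, with differences of 0.30, 0.32 and 0.32, CDH5 and KDR had 0.02 and -0.02, and none passed (adjusted p = 0.61, 0.63 and 0.65 by limma for the first 3). The sum of 6 fibroblast markers was 465 to 494 in the LNCap ERG arrays and 372 to 391 in the LNCap Vector arrays. Of these, COL1A1 was bright and had 0.38 (adjusted p = 0.56 by limma), and the other 5 were dim, with -0.21 for COL1A2, -0.12 for COL3A1, -0.12 for THY1, -0.07 for LUM and 0.26 for DCN. The median difference of the list was -0.10, and the higher sum is that of COL1A1. Of 3 measured basal markers 0 reached the dim level, with sums of 27.0 to 27.5 in the LNCap ERG arrays and 26.5 to 28.8 in the LNCap Vector arrays. The part of VWF, PECAM1, TEK and COL1A1 in the RASSF2 difference was not tested.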

How the data were processed

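RNA of 2 LNCap ERG and 2 LNCap Vector samples was hybridised to Affymetrix GeneChip arrays. The authors analysed the scans with dChip, normalized them with RMAexpress and annotated them with Multiexperiment Viewer, and the deposited values are probe set intensities. Their scale is not stated. Array medians were 14.0 to 14.4 and maxima 14962 to 15344, a range too wide for logarithms, so the intensities were read as linear and log2 was taken. For RMAexpress the version and steps were not stated. Normalization between arrays removes any shift shared by all genes.

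Of 51965 probe sets, 2 lacked a value in 1 array and were dropped. In the platform annotation 39464 of the rest name 1 gene, 838 several and 11661 none. LNCap ERG was set against LNCap Vector in limma 3.58.1 under R 4.3.3, by lmFit and eBayes (2 residual and 3.55 prior degrees of freedom), with Benjamini-Hochberg adjustment over all probe sets and a threshold of 0.05. The fit was tested on simulated data. Counts and motifs were computed in Python 3.11.15 with pandas 2.3.3 and figures with matplotlib 3.10.9. The members, lists and naming rule were chosen with earlier results of these data known. In each list up to 3 genes of smallest p are named, and STK3, STK4 and cell type markers were added after their values were seen. Arrays have no read depth, and their number limits the precision.

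The alternatives were trended and robust moderation, probe sets that name 1 gene, 1 probe set per gene, dimmer probe sets left out, quantile normalization again, housekeeping centring, the replicate block, the methods' t-test, gene means over probe sets, 16 added to each intensity, and each array left out.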

Additional observations from a re-analysis of the deposited data

How the results depend on the processing

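The RASSF2 difference of 0.84 was 0.81 to 0.87 with single arrays left out, 0.84 to 0.86 with quantile normalization again, housekeeping centring and the replicate block, and 0.64 with 16 added to each intensity. The RASSF probe sets with no overlap and a difference of at least 0.5 upward were 2 in the main setting, 1 with 16 added, 1 with gene means over probe sets, and 1 to 2 with single arrays left out. With 16 added it was RASSF4 that dropped out, where 226436_PM_at had 0.27, and so it was with gene means, where RASSF4 had 0.17. The same gene dropped out without the first LNCap ERG or the second LNCap Vector array. The downward count was 0 in these settings. At 9 of the 18 RASSF probe sets the sign turned with some array left out. RASSF2 and 226436_PM_at of RASSF4 kept theirs.

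Over all probe sets, 41 were higher and 29 lower at an adjusted p of 0.05 with trended and robust moderation, 1 and 1 with 1 probe set per gene, and 0 and 1 with the methods' t-test, against 0 and 0 in the main setting. The cause was not tested. None of the 67 partner genes was among them. Probe sets that name 1 gene, dimmer probe sets left out, quantile normalization again, housekeeping centring, the replicate block and single arrays left out gave 0 and 0.

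The labels number the arrays 1 and 2 in each group without saying that a number pairs them. Deviations of same-numbered arrays from their group means correlated at 0.07 over all probe sets, so the replicate block, which gave 0 higher and 0 lower calls, was not used. Depth does not apply to arrays. Signal near background limits RASSF4, RASSF6, RASSF8, RASSF9 and, in the LNCap Vector arrays, RASSF2.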

Other observations

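At 2 of the 3 RASSF6 probe sets the dim values differed by the same amount within both groups. At 233463_PM_at the 2 LNCap ERG arrays differed by 0.071 and so did the 2 LNCap Vector arrays, and at 229147_PM_at the arrays differed by 0.074 within each group. Such equality is not particular to RASSF6. The SD was also the same in both groups for TTR (0.052), PTPRC (0.052) and MAP4K4 (0.032). Its cause was not tested.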
